A study of Mus musculus with 18 samples.

Results

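Bladders of female BALB/c mice were taken whole for RNA sequencing, and the libraries described here come from mice on the normal diet, 1 day after a single intraperitoneal injection of either cyclophosphamide or saline. The cyclophosphamide group holds 3 mice that received 150 mg/kg and the control group 3 mice that received saline, so 6 of the 18 libraries of the series carry this comparison. All mice were wild type and 8 weeks old at the time given in the labels, and none of the 6 ate the vitamin A-enriched diet that other groups of the series received. Every gene with a name in the deposited table was considered, which is 46333 of 60750 features, and 19323 of them had enough counts to be tested. Whole bladders hold the urothelium, the connective tissue below it, muscle, vessels and nerves, so each value averages over all of these. Mice were housed in groups of 3 and the cage of each mouse is not given, so cage and treatment cannot be told apart.

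Cyclophosphamide is a prodrug that liver enzymes turn into a nitrogen mustard, which crosslinks the strands of DNA, and into acrolein, a reactive aldehyde that collects in urine. The urothelium, the lining that meets this urine, is built from basal cells, intermediate cells and large superficial umbrella cells that carry uroplakin plaques. Injury of this lining by the drug is known as haemorrhagic cystitis, and its repair in mice runs through proliferation of basal and intermediate cells and signals exchanged with the stroma.

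Values below are CPM, the counts of a gene scaled to 1000000 counts on all named genes of the library, and mice 1, 2 and 3 of each group are always given in that order. A log2 change is cyclophosphamide over saline after scaling by TMM, a method that sets libraries to a common level, SE is its standard error, and an adjusted p is that of edgeR's quasi-likelihood test after Benjamini-Hochberg adjustment over all genes tested, with 0.05 as the threshold for the words rose and fell. Between 20478365 and 32798341 counts on named genes stood behind each library. Mitochondrial genes took 2.36% to 2.98% of them. Genes with under 1000 bases of annotated length took 9.76% to 10.8% of the counts after cyclophosphamide and 7.47% to 8.71% after saline, without overlap, and the part of this difference in the results was not tested.

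One day after cyclophosphamide 1403 genes were higher and 868 were lower than after saline, which is 7.26% and 4.49% of the 19323 genes tested, or 11.8% in either direction. The change was over 2-fold in 720 of the higher and 429 of the lower genes, and over 10-fold in 148 and 49. The median log2 change over all genes tested was -6.5e-04. The CPM values of the 2 groups did not overlap in 2254 of the 2271 changed genes, and over all 19323 genes tested they did not overlap in 7562, which is 39.1%. Among 40 gene groups, replication and mitosis genes had the largest shares of higher members and fibroblast markers the largest share of lower members, as the chart of gene groups shows. Leaving out 1 mouse at a time gave 1571 changed genes without treated mouse 1, 1411 without treated mouse 2, 1262 without treated mouse 3, and 1335, 1401 and 1239 without saline mice 1, 2 and 3. A fit on the 6 libraries alone called 4463 genes and voom with sample weights 5439. Gene groups described below are lists put together for bladder and for this drug, with earlier results of these data known. The shares of 7.26% and 4.49% stand beside a group's count as a description only, and no group was tested against them. In a whole organ, fewer cells of a type and less RNA per cell cannot be told apart, and the same holds for more cells and more RNA per cell.

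**Figure D1:**
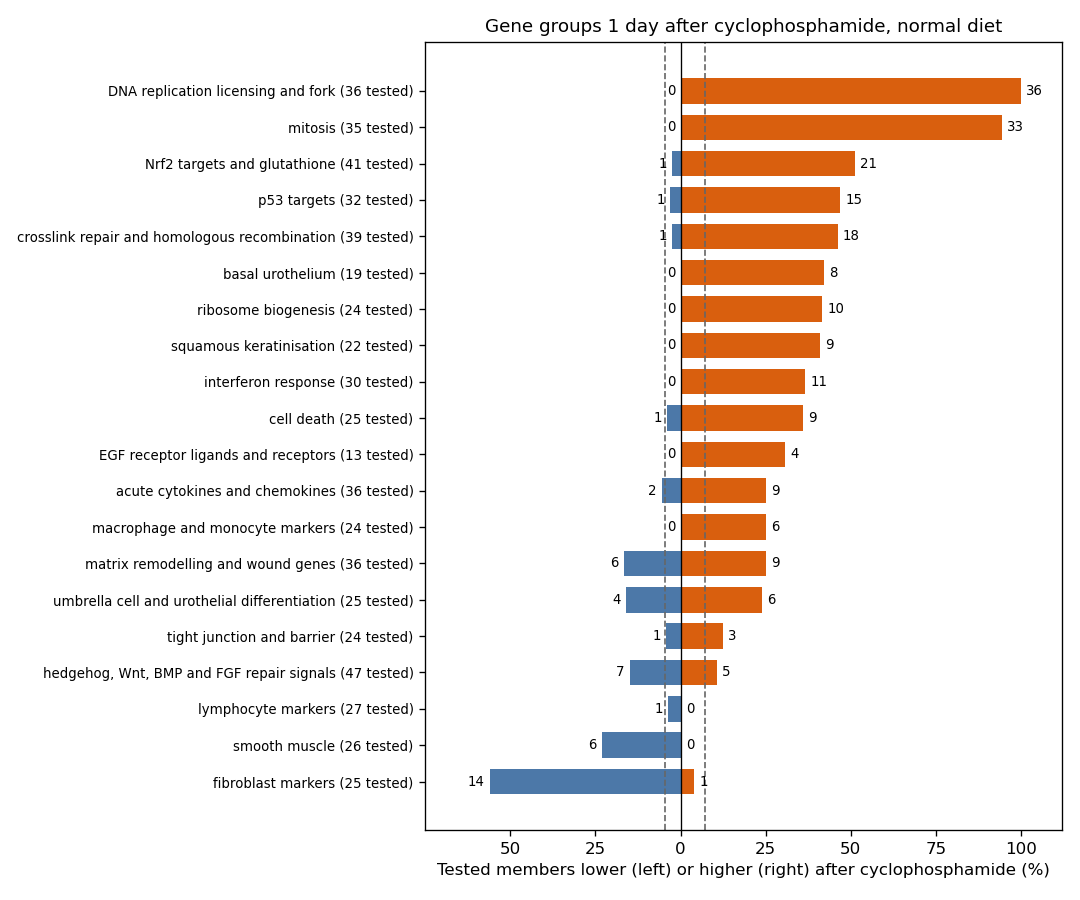
Share of tested members of each of 20 gene groups that were higher (right of 0) or lower (left of 0) 1 day after cyclophosphamide than after saline on the normal diet, in percent of the members tested (horizontal axis), at an adjusted p under 0.05. Numbers beside the bars are members, and dashed lines mark the shares over all genes tested, 7.26% higher and 4.49% lower. The DNA replication group reaches 36 of 36 higher, and the fibroblast group 14 of 25 lower.

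The DNA damage response was read first from targets of p53, the transcription factor that halts the cell cycle or starts cell death after DNA damage. Of 32 targets tested, 15 rose and 1 fell, with a median log2 change of 0.53. Cdkn1a, which encodes the cell cycle inhibitor p21 (chromosome 17, 29309953 to 29319696 of GRCm39), lay at 186, 237 and 198 CPM after cyclophosphamide and at 52.6, 53.6 and 48.8 CPM after saline (log2 change 2.00, SE 0.13, adjusted p = 9.0e-08), the smallest adjusted p of all genes. Each treated mouse was above every saline mouse. Eda2r, a death domain receptor of the TNF family, rose from 5.57, 4.49 and 4.09 to 15.9, 22.0 and 19.4 CPM (log2 change 2.02, SE 0.30, adjusted p = 2.2e-04). The pro-apoptotic Bcl2 family member Bax was at 86.4, 110 and 107 CPM against 41.3, 47.8 and 46.9 CPM (log2 change 1.16, SE 0.17, adjusted p = 1.8e-04). Gdf15, a secreted stress hormone, was at 0.0977, 0.430 and 0.244 CPM in saline mice and reached 4.44, 9.08 and 5.97 CPM (log2 change 4.63, SE 0.70, adjusted p = 2.5e-04). Mouse 2 was the highest of the treated mice for Cdkn1a, Eda2r, Bax and Gdf15. Other members that rose were Plk2 (log2 change 1.07), a polo-like kinase, Phlda3 (1.08), an inhibitor of Akt signalling, Aen (0.96), an apoptosis-enhancing nuclease, Ccng1 (0.72), cyclin G1, Mdm2 (0.65), the ubiquitin ligase that degrades p53, and Cd80 (2.80), a T cell costimulator. Several other well-known p53 targets did not pass: Bbc3 (Puma) had a log2 change of -0.06 (SE 0.24, adjusted p = 0.906), Pmaip1 (Noxa) one of 0.04 (SE 0.18, adjusted p = 0.921), and the excision repair genes Xpc and Ddb2 ones of -0.18 (SE 0.14, adjusted p = 0.436) and 0.10 (SE 0.15, adjusted p = 0.730).

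Crosslink repair uses the Fanconi anaemia proteins to unhook the linked strands and homologous recombination to rebuild them. Of 39 genes tested in this group, 18 rose and 1 fell, with a median log2 change of 0.65. Ercc1, partner of Ercc4 in the nuclease that cuts beside a crosslink (chromosome 7, 19075769 to 19090449), rose from 16.3, 19.1 and 15.5 CPM to 65.2, 59.0 and 81.4 CPM (log2 change 2.01, SE 0.18, adjusted p = 3.4e-06). Its partner did not pass: Ercc4 was at 33.0, 28.4 and 25.9 CPM against 31.7, 26.9 and 32.4 CPM, with overlapping groups (log2 change -0.06, SE 0.14, adjusted p = 0.834). Ercc1 was highest in treated mouse 3, and no treated mouse overlapped a saline mouse. Brca1, a scaffold of recombination repair, was at 20.8, 18.2 and 8.51 CPM against 3.37, 2.10 and 1.46 CPM (log2 change 2.79, SE 0.38, adjusted p = 9.2e-05). Mouse 3 was lowest among treated mice, and treated and saline mice did not overlap. Exo1, an end-resecting nuclease, was at 5.16, 7.63 and 4.87 CPM against 0, 0 and 0.183 CPM (adjusted p = 7.1e-05). Hrob, a cofactor of a helicase in recombination, had 2 counts over the saline libraries and 191 over the treated ones, a ratio of 101 with a 95% counting interval of 27.6 to 840.1 (adjusted p = 2.2e-04). Both were close to absent from the saline mice. Of the Fanconi genes, Fanca had a log2 change of 1.09 and Fanci one of 2.30, Fancd2 did not pass (0.47, SE 0.31, adjusted p = 0.360), Fancc was lower (-0.58, SE 0.18, adjusted p = 0.0437), and Fance, Fancg, Fancl, Fancm and Fancf did not pass. The kinases that sense damage also did not pass, with log2 changes of -0.05 for Atm (SE 0.20, adjusted p = 0.916) and -0.08 for Atr (SE 0.18, adjusted p = 0.842), while Chek1, the kinase downstream of Atr, rose by 2.36 (SE 0.45, adjusted p = 0.00187). Alternatives ended the calls of Fanca (5 alternatives, adjusted p up to 0.100) and Fancc (8 alternatives, adjusted p up to 0.161).

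All 36 tested genes of DNA replication licensing and the replication fork rose, with a median log2 change of 2.21. The rise held for the 6 subunits of the Mcm helicase, which opens the double helix, for the nucleotide-making enzymes Rrm1, Rrm2, Tk1 and Tyms, and for E2f1, E2f2, E2f7 and E2f8, transcription factors that govern this set. Uhrf1, which copies DNA methylation onto new strands, was at 55.2, 81.8 and 42.9 CPM after cyclophosphamide and 2.69, 3.49 and 2.71 CPM after saline (log2 change 4.34, SE 0.43, adjusted p = 7.1e-06). Subunits of the same complex had unlike changes: Mcm6 went from 3.32, 2.96 and 3.26 to 49.3, 65.6 and 46.2 CPM (log2 change 4.07, SE 0.35, adjusted p = 3.4e-06), whereas Mcm7 went from 29.8, 33.6 and 26.7 to 77.3, 93.1 and 63.6 CPM (log2 change 1.37, SE 0.17, adjusted p = 5.2e-05). Mouse 2 was the highest treated mouse for Uhrf1, Mcm6 and Mcm7, and no treated value overlapped a saline value. Leaving out 1 mouse at a time left 33 to 36 members past the threshold.

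Of 35 mitosis genes tested, 33 rose, with a median log2 change of 3.66. Only the kinesin Kif23 and the transcription factor Mybl2 did not pass, and Kif23 was at 29.2, 39.3 and 16.9 CPM against 21.6, 22.6 and 33.9 CPM, with overlapping groups (log2 change 0.13, SE 0.32, adjusted p = 0.855). The treated mice differed more from each other in this group than in the replication group. The mean log2(CPM + 0.5) over the mitosis genes was 3.36, 4.29 and 2.65 in the treated mice and 0.86, 1.00 and 0.79 in the saline mice. For the replication genes it was 4.53, 4.79 and 4.25 against 2.43, 2.41 and 2.42. Mouse 2 was highest and mouse 3 lowest in both groups of genes, and mouse 2 stood further ahead for mitosis. Ccnb1, cyclin B1, which drives entry into mitosis, was at 2.53, 19.4 and 2.21 CPM against 0.586, 0.478 and 0.701 CPM (log2 change 3.73, SE 0.76, adjusted p = 0.00367). Ube2c, the ubiquitin-conjugating enzyme of the anaphase promoting complex, was at 8.65, 37.4 and 4.99 CPM against 0.586, 0.478 and 0 CPM (log2 change 5.76, SE 0.89, adjusted p = 5.0e-04). For both genes mouse 2 stood far above the other treated mice, which still lay above all saline mice. Cdk1, the kinase that cyclin B1 activates, varied less, at 15.1, 26.4 and 9.82 CPM against 0.342, 0.765 and 1.62 CPM (log2 change 4.14, SE 0.43, adjusted p = 1.0e-05). Birc5, survivin, a subunit of the chromosomal passenger complex, was at 10.7, 23.6 and 7.28 CPM against 0.0977, 0.574 and 0.518 CPM (log2 change 5.06, SE 0.61, adjusted p = 3.4e-05). The calls of Ccnb1 (under voom with sample weights, adjusted p 0.0636) and Ube2c (under voom with sample weights, adjusted p 0.0579) were lost under other settings. The spread is visible in the plot of gene group levels by mouse.

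**Figure D2:**
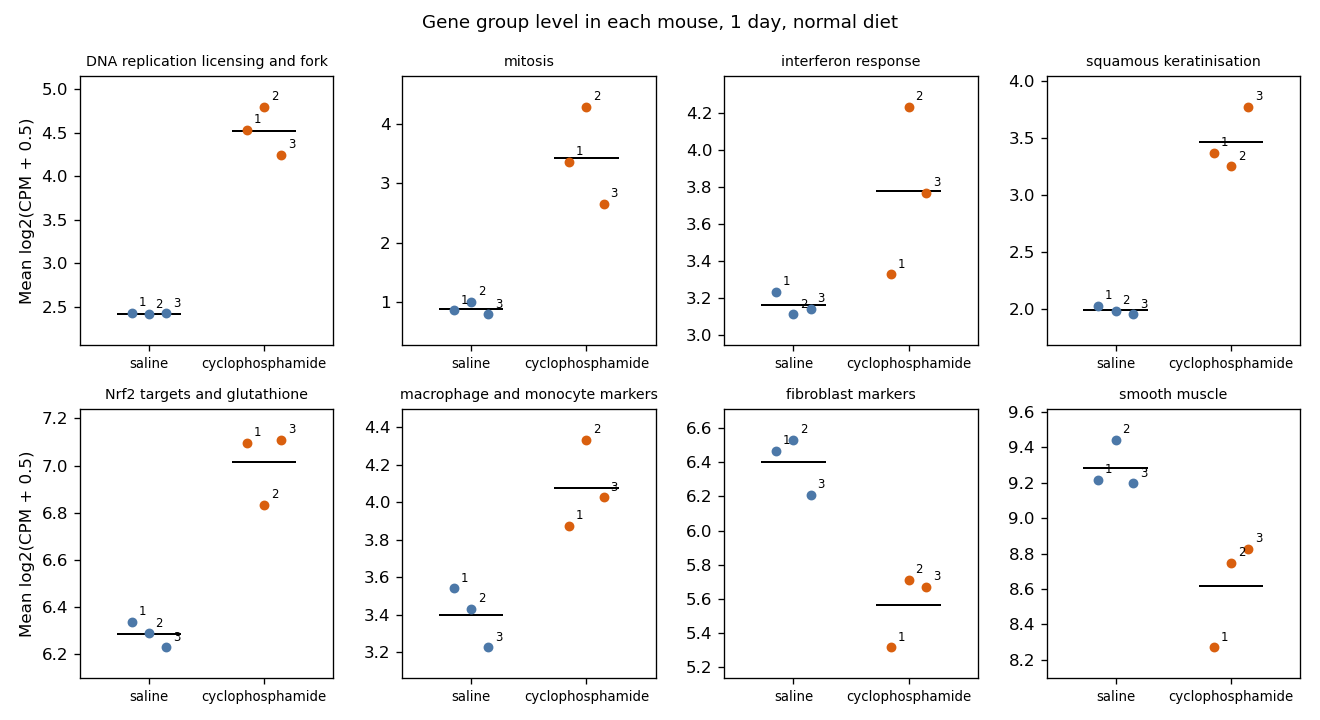
Mean log2(CPM + 0.5) over the tested members of 8 gene groups (vertical axes) in each mouse, for the saline and cyclophosphamide groups at 1 day on the normal diet; points are mice, numbered 1 to 3, and bars are group means. Treated mouse 2 is highest for replication, mitosis and interferon response genes and treated mouse 3 for squamous genes, and the groups do not overlap in any of the 8 panels.

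Genes of these sets share letters in their promoters, which are given here because the members moved together. Printed sequences are the 250 bases before the annotated start from RefSeq on build GRCm38.p6, read along the gene's strand. Shares were counted over the whole promoter sequence given, which was not cut to these 250 bases. A gene counts as matched if any of its promoters has a match. A match is a description of letters, not a bound site. The NF-Y box CCAAT, on either strand, was in 22 of 29 tested mitosis genes with a promoter in the table (75.9%). It was in 37.4% of all 32851 promoters and in 41.5% of all tested genes with a promoter. The cell cycle homology element CHR, TTTGAA or its reverse complement TTCAAA, was in 21 of 29 (72.4%), against 17.9% and 15.4%. An E2F site, TTTCGCGC, TTTGGCGC, TTTCCCGC or TTTGCCGC on either strand, was in 13 of 29 replication genes (44.8%), against 2.26% and 4.11%. The promoters of Ube2c, Mcm6 and Uhrf1 are shown with matches in capitals, CCAAT and CHR in Ube2c and E2F sites in the other genes. They were taken from the risen members of each set with a match in the 250 bases and the largest log2 changes. Matches that overlap are capitalised as 1 run.
Ube2c, chr2:164769679-164769928, plus strand: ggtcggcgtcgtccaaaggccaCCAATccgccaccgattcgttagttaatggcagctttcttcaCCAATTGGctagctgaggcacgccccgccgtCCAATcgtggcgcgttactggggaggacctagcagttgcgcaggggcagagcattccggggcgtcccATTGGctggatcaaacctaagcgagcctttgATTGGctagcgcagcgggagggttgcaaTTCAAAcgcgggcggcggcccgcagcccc
Mcm6, chr1:128359706-128359955, minus strand: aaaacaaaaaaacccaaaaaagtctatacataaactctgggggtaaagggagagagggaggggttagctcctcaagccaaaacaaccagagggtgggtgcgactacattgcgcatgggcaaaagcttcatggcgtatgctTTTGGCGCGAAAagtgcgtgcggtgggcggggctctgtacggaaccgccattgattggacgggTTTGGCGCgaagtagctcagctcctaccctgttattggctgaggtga
Uhrf1, chr17:56304063-56304312, plus strand: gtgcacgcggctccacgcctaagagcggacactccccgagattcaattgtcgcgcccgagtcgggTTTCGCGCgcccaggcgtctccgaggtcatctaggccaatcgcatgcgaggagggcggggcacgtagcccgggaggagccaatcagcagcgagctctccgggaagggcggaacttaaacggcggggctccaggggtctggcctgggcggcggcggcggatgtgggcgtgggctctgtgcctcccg
In this window Ube2c has 6 matches to CCAAT and 1 to CHR, Mcm6 has 3 matches to the E2F letters and Uhrf1 has 1.

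Targets of Nrf2, the transcription factor that answers electrophiles such as acrolein, and glutathione genes formed the next group, with 21 of 41 tested members higher, 1 lower and a median log2 change of 0.64. Akr1b8, an aldo-keto reductase that reduces reactive aldehydes, rose from 111, 104 and 101 to 838, 566 and 871 CPM (log2 change 2.85, SE 0.29, adjusted p = 9.7e-06). Slc7a11, the cystine transporter that feeds glutathione synthesis, was at 47.0, 24.8 and 54.7 CPM against 13.5, 8.18 and 13.02 CPM (log2 change 1.87, SE 0.33, adjusted p = 0.00112). Gpx2, the epithelial glutathione peroxidase, was at 128, 77.5 and 153 CPM against 13.2, 11.7 and 10.8 CPM (log2 change 3.33, SE 0.35, adjusted p = 1.1e-05). For Gpx2, Akr1b8 and Slc7a11 treated mouse 2 was the lowest of its group, the opposite of its place in the mitosis genes. Gsto1, a glutathione transferase of the omega class, was at 783, 622 and 769 CPM against 272, 274 and 250.4 CPM (log2 change 1.45, SE 0.18, adjusted p = 4.8e-05). Txnrd1, thioredoxin reductase, was at 158, 171 and 174 CPM against 87.2, 80.3 and 96.9 CPM (log2 change 0.93, SE 0.17, adjusted p = 0.00128). Of the glutathione-making enzymes, the modifier subunit Gclm rose (0.81) and glutathione synthase Gss rose (0.76), while the catalytic subunit Gclc was at 0.07 (SE 0.16, adjusted p = 0.819). Nqo1, the quinone reductase often used as the readout of Nrf2, did not pass at 0.64 (SE 0.21, adjusted p = 0.0573), and Gstm1, a glutathione transferase of the mu class, was at -0.25 (SE 0.24, adjusted p = 0.556). Counts of Gsta1, Gsta2 and Gsta3 are uncertain, since these genes have near-identical copies and the handling of reads with several alignments is not given in the sources used here; their log2 changes were 3.10, 1.49 and 1.11. The antioxidant element TGACNNNGC, on either strand, was in 11 of 34 members with a promoter (32.4%). It was in 12.4% of all promoters and in 16.4% of all tested genes with a promoter. Gsta3 and Txnrd1 had the largest log2 changes among the risen members with a match in the 250 bases before the start. Only Txnrd1 is shown, with its match in capitals. On the vitamin A-enriched diet its log2 change was 1.30.
Txnrd1, chr10:82858956-82859205, plus strand: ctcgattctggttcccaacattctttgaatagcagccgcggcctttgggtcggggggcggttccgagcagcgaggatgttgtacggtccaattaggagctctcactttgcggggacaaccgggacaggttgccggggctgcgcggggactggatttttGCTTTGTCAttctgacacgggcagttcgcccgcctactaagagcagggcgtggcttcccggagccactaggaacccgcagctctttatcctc
The match lies 84 bases before the annotated start of Txnrd1.

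Enzymes that handle cyclophosphamide itself were a smaller group, with 4 of 13 tested members higher and none lower. All 4 are aldehyde dehydrogenases, a family that detoxifies an aldehyde form of the drug. Aldh3a1 was at 466, 353 and 385 CPM against 130.1, 117 and 111 CPM (log2 change 1.75, SE 0.33, adjusted p = 0.00178). Aldh1a7 was at 181, 149 and 211 CPM against 58.9, 48.8 and 40.3 CPM (log2 change 1.87, SE 0.26, adjusted p = 1.5e-04). The 2 groups stayed apart for both genes, and Aldh1a1 and Aldh3b1 also rose, by 0.94 and 1.38.

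In the cell death group 9 of 25 tested genes rose and 1 fell, with a median log2 change of 0.28. The members with the steepest rises belong to necroptosis, a lytic form of cell death. Ripk3, its kinase (chromosome 14, 56022452 to 56026314), rose from 3.71, 3.73 and 4.36 to 20.7, 20.1 and 23.9 CPM (log2 change 2.45, SE 0.26, adjusted p = 1.1e-05). Mlkl, the pore-forming substrate of Ripk3, rose from 8.94, 8.37 and 8.96 to 29.1, 36.1 and 36.8 CPM (log2 change 1.96, SE 0.31, adjusted p = 3.7e-04). The 3 treated mice lay close together for both genes, well apart from the 3 saline mice. Zbp1, a nucleic acid sensor that can engage Ripk3, was at 5.40, 17.7 and 8.72 CPM against 1.90, 1.34 and 1.52 CPM (log2 change 2.74, SE 0.37, adjusted p = 9.2e-05). Pycard, the inflammasome adaptor, rose by 1.53 (SE 0.21, adjusted p = 1.1e-04). Bmf, a pro-apoptotic BH3-only protein, fell from 60.7, 59.5 and 59.7 to 39.0, 26.1 and 27.2 CPM (log2 change -0.96, SE 0.19, adjusted p = 0.00215). Genes of the gasdermin C cluster, which encode potential pore-forming proteins, were counted in the urothelial group: Gsdmc3 rose from 49.96, 48.0 and 65.6 to 264, 380.4 and 337 CPM (log2 change 2.58, SE 0.23, adjusted p = 3.9e-06) and Gsdmc2 from 200.4, 209 and 267 to 659.5, 914 and 755 CPM (log2 change 1.78, SE 0.23, adjusted p = 7.3e-05). The split of reads among these near-identical copies is uncertain, and all treated mice were above all saline mice for both.

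Of 36 tested cytokines and chemokines 9 rose, 2 fell and 25 did not pass, with a median log2 change of 0.83. Ccl2, the main monocyte attractant, was at 3.58, 10.5 and 5.77 CPM against 0.342, 0.574 and 0.793 CPM (log2 change 3.49, SE 0.50, adjusted p = 1.5e-04). Ccl7, a further ligand of the same receptor, was at 6.40, 15.7 and 14.7 CPM against 0.293, 1.15 and 0.518 CPM (log2 change 4.24, SE 0.57, adjusted p = 8.9e-05). Ccl12, a related ligand, was at 2.44, 9.52 and 4.58 CPM against 0.684, 0.765 and 1.46 CPM (log2 change 2.47, SE 0.55, adjusted p = 0.00618). Treated mouse 2 had the highest level of all 3, and mouse 1 the lowest. Ccl8 was at 53.7, 93.2 and 86.4 CPM against 9.13, 5.26 and 7.20 CPM (log2 change 3.43, SE 0.72, adjusted p = 0.00623) and was likewise lowest in mouse 1. Ccl6 followed at 68.5, 150.1 and 102 CPM against 25.4, 14.2 and 10.3 CPM (log2 change 2.69, SE 0.35, adjusted p = 6.4e-05).

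The alarmin Il33, released by injured barrier cells, rose from 7.33, 6.31 and 4.82 to 81.7, 62.0 and 104 CPM (log2 change 3.75, SE 0.46, adjusted p = 5.0e-05). Il1rn, the antagonist of the interleukin 1 receptor, rose from 4.20, 4.45 and 4.21 to 41.8, 28.9 and 32.3 CPM (log2 change 3.00, SE 0.40, adjusted p = 8.5e-05), while the agonist Il1b was at 1.00, 1.37 and 1.47 CPM against 0.244, 0.430 and 2.19 CPM, with overlapping groups (log2 change 0.39, SE 0.75, adjusted p = 0.797). Lif, a cytokine of the interleukin 6 family, was at 5.78, 7.02 and 9.58 CPM against 1.12, 1.00 and 1.13 CPM (log2 change 2.78, SE 0.35, adjusted p = 4.8e-05). Il6 was found in few reads, 15 counts over the treated libraries and 1 over the saline libraries (a ratio of 15.9 with a 95% counting interval of 2.44 to 668, adjusted p = 0.0909), and Tnf did not pass (log2 change 0.89, SE 1.21, adjusted p = 0.698). Il33, Il1rn and Lif were higher in every treated mouse than in any saline mouse. The neutrophil attractant Cxcl1 was low in both groups, at 1.05, 1.82 and 2.41 CPM against 0.293, 0.478 and 0.274 CPM (log2 change 2.34, SE 0.52, adjusted p = 0.00662). The members that fell were Cxcl12 and Cxcl14. Cxcl12, a retention signal for leukocytes and progenitors, fell from 231, 270.4 and 242 to 38.5, 50.03 and 45.8 CPM (log2 change -2.47, SE 0.29, adjusted p = 2.6e-05), and Cxcl14 fell by 0.82 on the log2 scale (SE 0.24, adjusted p = 0.0297). The groups did not overlap for Cxcl12 or Cxcl14. Other settings or a left-out mouse ended the call of Cxcl14 (6 alternatives, adjusted p up to 0.120).

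Markers of immune cells were uneven. Of 24 macrophage and monocyte markers 6 rose and none fell, with a median log2 change of 0.73 and 18 of 24 above 0. Their summed level was 796 to 916 CPM after cyclophosphamide against 619 to 696 CPM after saline. Msr1, a scavenger receptor, was at 10.9, 16.5 and 16.1 CPM against 2.78, 2.39 and 2.74 CPM (log2 change 2.46, SE 0.28, adjusted p = 1.9e-05). Fcgr1, a high-affinity antibody receptor of monocytes, was at 5.69, 10.8 and 8.02 CPM against 1.76, 1.15 and 1.07 CPM (log2 change 2.63, SE 0.38, adjusted p = 1.8e-04). Ms4a6d, a membrane protein of macrophages that is not on this list and is named for its small p, rose from 5.08, 5.02 and 4.82 to 20.1, 38.1 and 33.4 CPM (log2 change 2.62, SE 0.24, adjusted p = 3.9e-06). All 3 were lowest in treated mouse 1. Leaving out 1 mouse gave 5 to 6 markers higher, and other settings gave up to 11. Neutrophil markers were few: 10 were tested, 2 rose (Cxcr2 and Clec4d) and 1 fell (Mmp9, which other cells also make), Ly6g and Camp had no count in any of the 6 libraries, and the summed level was 16.8 to 32.7 CPM against 28.4 to 34.4 CPM. Their median log2 change was nonetheless 1.98, with 7 of 10 above 0, and their mean log2(CPM + 0.5) was 0.64, 0.79 and 1.44 after cyclophosphamide against 0.39, 0.25 and 0.27 after saline, without overlap, so the sum and the median differ in direction. With 1 mouse left out 1 to 3 of them were higher and 0 to 1 lower. Cxcr2, the receptor for Cxcl1, was at 2.39, 1.21 and 3.03 CPM against 0.0488, 0 and 0.152 CPM (log2 change 4.80, SE 0.99, adjusted p = 0.00367). Only the natural killer receptor Ncr1 fell among 27 lymphocyte markers, and none rose (summed level 16.9 to 46.5 CPM against 28.2 to 51.4 CPM). The median log2 change of the lymphocyte markers was -0.63, with 6 of 27 above 0. Their mean log2(CPM + 0.5) overlapped, at -0.08, 0.58 and -0.05 against 0.87, 0.26 and 0.54. Kit fell among 10 mast cell and eosinophil markers, whose summed level was 21.1 to 22.7 CPM against 42.9 to 52.4 CPM. Over these markers the median log2 change was 0.06, with 5 of 10 above 0, and the mean log2(CPM + 0.5) overlapped, at 0.93, 0.97 and 0.97 against 1.17, 0.96 and 0.87. Not all of these held under every alternative: the calls of Clec4d (3 alternatives, adjusted p up to 0.0948) and Mmp9 (4 alternatives, adjusted p up to 0.0729) were lost.

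Interferon-stimulated genes rose in part, 11 of 30 tested and none fell, with a median log2 change of 0.80. Isg15, a ubiquitin-like modifier, was at 5.16, 18.8 and 9.82 CPM against 3.61, 1.43 and 1.74 CPM (log2 change 2.32, SE 0.40, adjusted p = 8.9e-04). Irf7, a transcription factor of the interferon loop, was at 13.9, 37.5 and 20.2 CPM against 10.6, 8.70 and 10.2 CPM (log2 change 1.28, SE 0.30, adjusted p = 0.0102). Treated mouse 2 was the highest for both and treated mouse 1 the lowest. With 1 mouse left out in turn, 5 to 15 members passed. Irf1 (log2 change 0.19, SE 0.16, adjusted p = 0.507), a transcription factor that interferon induces, did not pass. Among 20 antimicrobial and acute phase genes 3 rose. Reg3g, a secreted C-type lectin that kills bacteria, was at 71.3, 42.1 and 57.3 CPM against 0.537, 1.15 and 0.274 CPM (log2 change 6.52, SE 0.56, adjusted p = 3.4e-06). Hp, haptoglobin, which binds free haemoglobin, was at 13.5, 19.0 and 44.7 CPM against 1.51, 2.01 and 2.04 CPM (log2 change 3.79, SE 1.11, adjusted p = 0.0414), and Pglyrp1, a peptidoglycan-binding protein, at 3.30, 1.98 and 5.73 CPM against 0.635, 0.0478 and 0.396 CPM (log2 change 3.33, SE 0.62, adjusted p = 0.00171). Treated mouse 3 was highest for Hp and Pglyrp1 but not for Reg3g. Lost under an alternative were the calls of Irf7 (without treated mouse 2, adjusted p 0.0879) and Hp (9 alternatives, adjusted p up to 0.153).

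Of 26 tested genes of nerve, Schwann cells and inflammatory pain 5 rose, none fell and 21 did not pass, with a median log2 change of 0.39. The 5 are 4 receptors and 1 prostaglandin-making enzyme. Bdkrb1, the bradykinin B1 receptor, which is induced by tissue injury (chromosome 12, 105570350 to 105571770), had 223 counts over the treated libraries and 1 over the saline libraries, at 1.62, 5.08 and 2.58 CPM in the treated mice (a ratio of 236 with a 95% counting interval of 41.9 to 9358, adjusted p = 4.8e-05). Bdkrb2, the constitutive B2 receptor, was present in saline mice and rose from 21.7, 21.6 and 24.6 to 43.1, 45.4 and 45.1 CPM (log2 change 0.98, SE 0.16, adjusted p = 4.7e-04). Tacr1, the receptor of substance P, rose from 0.781, 1.29 and 1.04 to 9.56, 12.6 and 8.06 CPM (log2 change 3.27, SE 0.42, adjusted p = 6.7e-05). In each of these genes the groups stayed apart, and mouse 2 was the highest treated mouse. Ptger4, a prostaglandin E2 receptor, was at 27.1, 26.2 and 27.1 CPM against 13.6, 14.8 and 11.3 CPM (log2 change 1.02, SE 0.17, adjusted p = 6.6e-04). The prostaglandin-making enzyme Ptgs1 rose by 0.73 (SE 0.19, adjusted p = 0.0196), and the inducible enzyme Ptgs2 did not pass (log2 change 1.07, SE 0.39, adjusted p = 0.0825). Alternatives ended the call of Ptgs1 (4 alternatives, adjusted p up to 0.158).

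**Figure D3:**
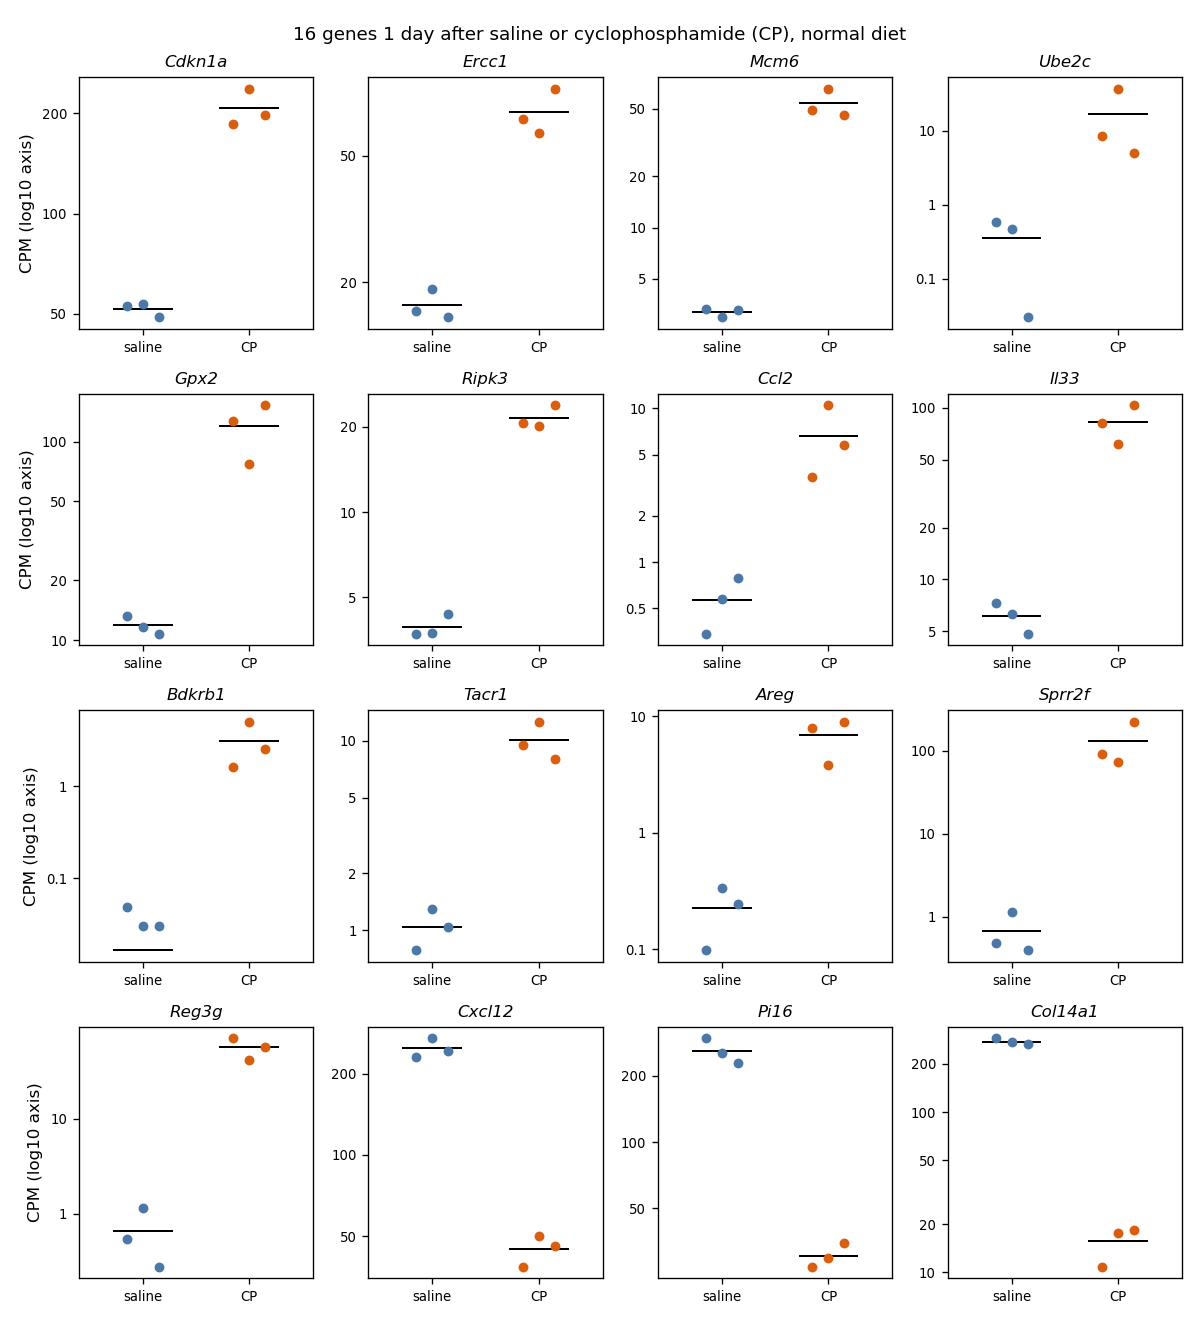
CPM of 16 genes in each mouse on a log10 axis (vertical), 1 panel per gene, for saline and cyclophosphamide at 1 day on the normal diet; points are mice, bars are group means, and a value of 0 is drawn at 0.03 CPM but enters the mean as 0. All 16 genes were past the threshold; Ripk3 values sit close together within each group, while Ccl2 and Areg spread more among treated mice.

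In the urothelium, part of the basal markers were higher and umbrella cell markers went both ways. Of 19 basal markers 8 rose and none fell, with a median log2 change of 0.76. Col17a1, a hemidesmosomal collagen that anchors basal cells, rose from 22.9, 25.3 and 24.3 to 141, 68.2 and 135 CPM (log2 change 2.25, SE 0.35, adjusted p = 3.0e-04), with treated mouse 2 lowest. Ngfr, a neurotrophin receptor, was at 6.17, 7.71 and 7.53 CPM against 1.66, 1.00 and 1.80 CPM (log2 change 2.25, SE 0.38, adjusted p = 7.3e-04), and the adhesion receptor Cd44 at 241, 187 and 217 CPM against 108, 99.5 and 97.3 CPM (log2 change 1.08, SE 0.16, adjusted p = 2.7e-04). Of 25 umbrella and differentiation genes 6 rose and 4 fell, and 2 to 4 were lower with 1 mouse left out and 4 to 9 under other settings. The 4 lower genes are Klf4 (log2 change -0.74), a transcription factor of epithelial differentiation, Upk2, a uroplakin, with a log2 change of -0.86 (SE 0.19, adjusted p = 0.00542), Krt20 (-0.81, SE 0.19, adjusted p = 0.00758) and Snx31, a sorting nexin that binds uroplakins, which fell from 876, 818 and 858 to 480.3, 449.9 and 367 CPM (log2 change -0.98, SE 0.22, adjusted p = 0.00748). The 6 higher genes are Krt19, the transcription factor Elf3, Upk3bl and 3 gasdermin C copies. Elf3 rose from 126, 116 and 130 to 278, 234 and 246 CPM (log2 change 1.03, SE 0.23, adjusted p = 0.00609). The calls of Klf4 (2 alternatives, adjusted p up to 0.0832), Krt20 (without treated mouse 3, adjusted p 0.0506) and Upk3bl (4 alternatives, adjusted p up to 0.104) were lost under other settings.

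Genes of squamous keratinisation, a differentiation programme of skin, rose in 9 of 22 members tested and fell in none; the median log2 change was 2.02, or 1.80 with genes at 0 in one group set at their bound. Sbsn, suprabasin, rose from 21.0, 16.8 and 21.4 to 107, 75.8 and 128 CPM (log2 change 2.39, SE 0.24, adjusted p = 7.1e-06). Krt13, a keratin of stratified non-keratinised epithelia, was at 5.35, 4.36 and 10.5 CPM against 0.733, 0.382 and 0.427 CPM (log2 change 3.73, SE 0.57, adjusted p = 2.7e-04). The small proline-rich gene Sprr2f, part of the cornified envelope, was at 91.4, 73.3 and 222 CPM against 0.488, 1.15 and 0.396 CPM (log2 change 7.63, SE 1.07, adjusted p = 3.7e-04), although reads of the Sprr2 copies may be split among them. Mouse 3 was the highest treated mouse for Sbsn, Krt13 and Sprr2f and mouse 2 the lowest, the reverse of the order in the mitosis genes. Dsg3, a desmosomal cadherin, had 215 counts over the treated and 3 over the saline libraries (a ratio of 75.8 with a 95% counting interval of 25.6 to 370.5, adjusted p = 0.00137). Krt6a had 224 against 3 counts (a ratio of 79.0 with a 95% counting interval of 26.7 to 386, adjusted p = 0.00795). Of 24 tight junction and barrier genes 3 were higher and 1 lower, with a median log2 change of 0.07. Leaving out 1 mouse gave 0 to 1 higher and 1 to 2 lower, and up to 6 were lower under another setting. Cldn8, a barrier-forming claudin, fell from 194, 178 and 216 to 83.4, 73.6 and 68.3 CPM (log2 change -1.39, SE 0.24, adjusted p = 7.4e-04), and Cldn2, a pore-forming claudin, was at 0.621, 1.37 and 2.87 CPM against 0.195, 0.0956 and 0 CPM (log2 change 4.10, SE 1.23, adjusted p = 0.0368). Other settings or a left-out mouse ended the calls of Krt6a (2 alternatives, adjusted p up to 0.234) and Cldn2 (6 alternatives, adjusted p up to 0.163).

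Of 13 tested EGF receptor ligands and receptors, a family known for driving epithelial growth, 4 rose, all of them ligands, none fell and 9 did not pass, with a median log2 change of 0.00. Areg, amphiregulin (chromosome 5, 91287458 to 91296291), rose from 0.0977, 0.335 and 0.244 to 7.88, 3.83 and 8.96 CPM (log2 change 4.89, SE 0.89, adjusted p = 0.00152). Ereg, epiregulin, was at 10.4, 11.4 and 12.2 CPM against 1.71, 0.956 and 2.53 CPM (log2 change 2.68, SE 0.55, adjusted p = 0.00343), and Nrg1, a ligand of Erbb3 and Erbb4, at 10.9, 11.02 and 17.6 CPM against 4.49, 2.68 and 3.42 CPM (log2 change 1.90, SE 0.41, adjusted p = 0.00542). Areg was lowest in mouse 2, and no treated mouse overlapped a control for any of the 3. Epgn had 29 counts over the treated libraries and 0 over the saline libraries, which is at least 10.2-fold higher (adjusted p = 0.0466). The receptor Egfr (log2 change -0.26, SE 0.16, adjusted p = 0.318) and the ligand Tgfa (log2 change -0.26, SE 0.24, adjusted p = 0.529) did not pass. Among immediate early genes 3 of 26 rose (1 to 3 with 1 mouse left out), and Fosl1, an AP-1 subunit, went from 0.342, 0.287 and 0.152 to 6.45, 8.03 and 9.70 CPM (log2 change 4.99, SE 0.62, adjusted p = 4.8e-05). Not all of these held under every alternative: the calls of Areg (under voom with sample weights, adjusted p 0.111) and Epgn (8 alternatives, adjusted p up to 0.147) were lost.

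Of 25 fibroblast markers 14 fell, 1 rose and 10 did not pass, and 5 had a log2 change above 0, with a median log2 change of -0.96, and their summed level was 3903 to 5518 CPM after cyclophosphamide against 11034 to 11740.3 CPM after saline. Pi16, a marker of adventitial fibroblasts, fell from 297, 253 and 229 to 27.1, 29.8 and 34.6 CPM (log2 change -3.09, SE 0.43, adjusted p = 1.5e-04). Clec3b, tetranectin, fell from 230.1, 260.3 and 237 to 33.5, 61.8 and 39.3 CPM (log2 change -2.44, SE 0.52, adjusted p = 0.00587). Lum, lumican, a collagen-binding proteoglycan, fell from 238, 308 and 200 to 49.2, 68.5 and 57.7 CPM (log2 change -2.09, SE 0.32, adjusted p = 2.8e-04). All saline mice lay far above all treated mice for each of them. Structural collagens fell less: Col1a1 was at 332, 535 and 396 CPM against 1331, 1220 and 1293 CPM (log2 change -1.61, SE 0.35, adjusted p = 0.00505) and Col1a2 at 428, 672 and 454 CPM against 1636, 1626 and 1527 CPM (log2 change -1.63, SE 0.30, adjusted p = 0.00136). Col3a1, at 648, 1156 and 858 CPM against 1760.1, 1761 and 1584 CPM, missed the threshold (log2 change -0.94, SE 0.31, adjusted p = 0.0532), and the surface receptor Pdgfra, with overlapping groups, was at 63.9, 85.8 and 105 CPM against 110.5, 107 and 105 CPM (log2 change -0.34, SE 0.23, adjusted p = 0.379). Ly6a, which also responds to interferon, was the member that rose, from 88.1, 87.9 and 94.2 to 129, 274 and 240.5 CPM (log2 change 1.25, SE 0.22, adjusted p = 8.6e-04). Leaving out 1 mouse at a time left 10 to 14 markers lower. Beside them, smooth muscle markers summed to 22920.4 to 36624 CPM after cyclophosphamide and 46607 to 57257 CPM after saline, and basal urothelial markers to 6606 to 7529.6 CPM and 4062 to 4466 CPM. The part of these cells in the fibroblast values was not tested.

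Smooth muscle genes had log2 changes below 0 in all 26 members tested, with a median of -0.63, and 6 passed the threshold. The count was 0 to 2 when 1 mouse was left out and 3 to 15 under other settings. Synpo2, an actin-binding protein of the contractile apparatus, was at 508, 576 and 713 CPM against 1162, 1322 and 1257 CPM (log2 change -1.06, SE 0.26, adjusted p = 0.0132). P2rx1, the ATP receptor through which nerves contract the bladder, was at 207, 308 and 303 CPM against 586, 809.9 and 649.7 CPM (log2 change -1.32, SE 0.36, adjusted p = 0.0230). Mouse 1 was the lowest treated mouse for both, and treated and saline mice did not overlap. Tagln (log2 change -0.56, SE 0.34, adjusted p = 0.307) and Acta2 (log2 change -0.71, SE 0.32, adjusted p = 0.170) did not pass, nor did the muscarinic receptor Chrm2. Lost under an alternative were the calls of Synpo2 (2 alternatives, adjusted p up to 0.0612) and P2rx1 (6 alternatives, adjusted p up to 0.0968).

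Genes that shape the matrix moved both ways. Of 36 tested 9 rose and 6 fell. A protease and a protease inhibitor were among those that rose: Timp1, an inhibitor of matrix metalloproteinases, went from 3.96, 3.30 and 3.02 to 16.9, 43.7 and 44.7 CPM (log2 change 3.36, SE 0.33, adjusted p = 7.3e-06), and Plat, tissue plasminogen activator, from 25.9, 20.6 and 16.5 to 62.1, 76.4 and 83.2 CPM (log2 change 1.82, SE 0.31, adjusted p = 6.9e-04). Timp1 and Plat were lowest in treated mouse 1. Mmp10, stromelysin 2, had 116 counts over the treated and 1 over the saline libraries (a ratio of 123 with a 95% counting interval of 21.6 to 4888, adjusted p = 0.00970). Those that fell include elastic fibre genes and matricellular proteins: Fbln5, needed for elastic fibre assembly, fell from 87.3, 91.6 and 86.5 to 15.8, 18.3 and 19.3 CPM (log2 change -2.31, SE 0.25, adjusted p = 1.3e-05). Thbs2, an inhibitor of vessel growth, fell from 231, 240.5 and 259.9 to 66.7, 77.0 and 82.0 CPM (log2 change -1.70, SE 0.22, adjusted p = 8.0e-05), while Thbs1 was higher (0.67, SE 0.19, adjusted p = 0.0295). Lox, the crosslinking enzyme of collagen, fell from 19.9, 19.2 and 14.4 to 7.17, 8.96 and 8.88 CPM (log2 change -1.10, SE 0.22, adjusted p = 0.00313). Alternatives ended the calls of Mmp10 (without saline mouse 3, adjusted p 0.0618) and Thbs1 (5 alternatives, adjusted p up to 0.113).

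Hedgehog, Wnt, BMP and FGF signals, which stroma and urothelium exchange during repair, went both ways, with 7 lower and 5 higher of 47 tested. Both counts moved with the libraries and the settings: with 1 mouse left out 3 to 6 were lower and 2 to 5 higher, and up to 18 were lower under another setting. Bmp4, a ligand made by stroma, fell from 44.3, 39.1 and 40.7 to 11.5, 17.9 and 15.9 CPM (log2 change -1.46, SE 0.21, adjusted p = 1.7e-04). Sfrp1, a secreted Wnt inhibitor, fell from 38.6, 38.0 and 39.8 to 6.93, 11.1 and 10.03 CPM (log2 change -2.05, SE 0.25, adjusted p = 3.5e-05). Shh, the urothelial ligand of the hedgehog pathway, was at 236, 169.8 and 174 CPM against 201, 185 and 197 CPM, with overlapping groups (log2 change -0.01, SE 0.17, adjusted p = 0.989), and its target Gli1 did not pass (log2 change -0.57, SE 0.22, adjusted p = 0.0997). Wnt4 rose from 70.0, 54.7 and 76.6 to 129.8, 126 and 144 CPM (log2 change 0.99, SE 0.17, adjusted p = 9.6e-04). Fgf23, a hormone of phosphate balance best known from bone (chromosome 6, 127049865 to 127059259), was the steepest rise of the group, from 0.244, 0.335 and 0.976 to 15.5, 25.9 and 26.9 CPM (log2 change 5.33, SE 0.81, adjusted p = 3.5e-04). Its treated values did not overlap with those of any saline mouse. Of 25 endothelial and vessel genes 5 rose and 1 fell, and with 1 mouse left out 3 to 6 were higher. Plvap, the diaphragm protein of fenestrated endothelium, was at 78.9, 67.2 and 102 CPM against 35.3, 29.4 and 38.3 CPM (log2 change 1.27, SE 0.18, adjusted p = 1.5e-04), and Icam1, an adhesion receptor for leukocytes, at 58.5, 74.2 and 71.5 CPM against 28.1, 27.2 and 32.1 CPM (log2 change 1.22, SE 0.16, adjusted p = 6.7e-05). Sele, E-selectin, fell from 53.6, 50.6 and 65.2 to 30.7, 27.9 and 20.4 CPM (log2 change -1.10, SE 0.24, adjusted p = 0.00526), and P-selectin, Selp, rose from 5.08, 3.73 and 2.53 to 10.8, 12.9 and 11.9 CPM (log2 change 1.66, SE 0.37, adjusted p = 0.00715). The call of Selp (without saline mouse 3, adjusted p 0.0505) was lost under other settings.

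Red blood cell genes followed. Of 7 tested 3 fell and 1 rose, 1 to 3 were lower and 0 to 1 higher with 1 mouse left out, and the summed level was 25.2 to 40.0 CPM against 76.2 to 146 CPM. Alas2, the haem-making enzyme of erythroid cells, fell from 3.52, 2.73 and 2.29 to 0.717, 0.444 and 0.737 CPM (log2 change -2.16, SE 0.48, adjusted p = 0.00642). The globins Hbb-bs (log2 change -1.66, SE 0.45, adjusted p = 0.0238) and Hba-a1 (log2 change -1.87, SE 0.46, adjusted p = 0.0128) were also lower, with reads that their copies may share. Retinoid genes were also measured, since the series varies vitamin A: 3 of 20 rose and 2 fell (0 to 2 with 1 mouse left out). Aldh1a2, a retinoic acid-making enzyme, rose from 21.2, 18.8 and 14.3 to 39.5, 46.2 and 59.6 CPM (log2 change 1.42, SE 0.25, adjusted p = 0.00112) and Rdh10, which acts before it, from 19.0, 23.9 and 21.8 to 38.8, 36.0 and 39.5 CPM (log2 change 0.82, SE 0.16, adjusted p = 0.00247). Lrat, which stores retinol as esters, was at 0.526, 1.94 and 0.900 CPM against 7.96, 2.10 and 6.98 CPM (log2 change -2.33, SE 0.57, adjusted p = 0.0117), and Cyp26b1, which degrades retinoic acid, at 1.34, 1.05 and 2.46 CPM against 4.49, 1.91 and 7.62 CPM (log2 change -1.54, SE 0.42, adjusted p = 0.0226). Saline mice differed widely among themselves in Lrat and Cyp26b1. Other settings or a left-out mouse ended the calls of Hbb-bs (6 alternatives, adjusted p up to 0.105), Hba-a1 (2 alternatives, adjusted p up to 0.0697), Lrat (3 alternatives, adjusted p up to 0.0599) and Cyp26b1 (6 alternatives, adjusted p up to 0.188).

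The genes with the largest falls, whatever their group, came next. Col14a1, a collagen that coats fibrils (chromosome 15, 55171040 to 55384199), fell from 290.1, 273 and 266 to 10.8, 17.6 and 18.3 CPM (log2 change -4.15, SE 0.42, adjusted p = 8.9e-06). Inmt, a methyltransferase of small amines, fell from 192, 180.3 and 234 to 2.58, 9.64 and 3.68 CPM (log2 change -5.25, SE 0.90, adjusted p = 0.00175). Scara5, a ferritin receptor, fell from 164, 139.6 and 157 to 6.12, 14.4 and 6.59 CPM (log2 change -4.09, SE 0.51, adjusted p = 6.9e-05). Treated mouse 2 was highest for Inmt and Scara5 and still lay far below all saline mice. Stc2, stanniocalcin 2, a secreted glycoprotein, fell from 22.0, 19.5 and 24.2 to 0.478, 1.05 and 0.737 CPM (log2 change -4.84, SE 0.56, adjusted p = 2.3e-05). Cntn4, contactin 4, an adhesion molecule of neurons, fell from 16.1, 13.3 and 13.2 to 0, 0.605 and 0.532 CPM (log2 change -5.17, SE 0.58, adjusted p = 1.9e-05). No treated mouse came near a saline mouse for Stc2 or Cntn4. Frmpd4, a scaffold protein, had 0 counts over the treated libraries and 119 over the saline libraries, at least 37.5-fold lower (adjusted p = 0.00970). Bhmt, a methyltransferase that remakes methionine, likewise had 0 against 83 counts, at least 26.2-fold lower (adjusted p = 0.00670). By adjusted p the foremost falls were Htra3, a secreted protease (-2.15), Gpc6, a glypican (-2.79), Meg3, an imprinted long noncoding RNA (-3.02), Col14a1, Plxdc2 (-1.79), Fbln5, the sodium-proton exchanger Slc9a2 (-2.45), Cntn4, Stc2 and Pex5l (-2.91). Chodl (-4.91), Myoc (-4.43), Dner (-4.69) and the angiotensin receptor Agtr2 (-4.46) were further large falls.

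Among the steepest rises were genes that were close to absent from saline bladders. Anxa10, an annexin of the gastric epithelium, had 8.41, 7.67 and 6.47 CPM against 0.244, 0 and 0 CPM (adjusted p = 1.3e-04). Tff1, a trefoil peptide of mucous epithelia, had 87 counts over the treated libraries and 0 over the saline libraries (at least 30.7-fold higher, adjusted p = 0.00479). Aoc1, the diamine oxidase that breaks down histamine, had 86 against 0 counts (at least 30.3-fold higher, adjusted p = 0.00514). All 3 treated mice had counts of Tff1 and of Aoc1. Tnfsf4, the OX40 ligand, had 85 against 0 (at least 30.0-fold higher, adjusted p = 0.0135), and Csta1, a cystatin, 79 against 0 (at least 27.9-fold higher, adjusted p = 4.7e-04). These 2 genes also had counts in every treated mouse. Rnf183 and Hsd17b6, with 95 and 70 counts against 0, complete the set of genes absent from all 3 saline libraries of the normal diet among the 15 largest rises. By the difference in mean CPM the foremost rises included S100a6, Akr1b3 and Krt19. S100a6, a calcium-binding protein, was at 4089, 3696 and 4484 CPM against 2128, 2254 and 1894 CPM (log2 change 0.97, SE 0.27, adjusted p = 0.0272), Akr1b3, aldose reductase, at 2084, 1785 and 2119.5 CPM against 862, 909 and 896 CPM (log2 change 1.17, SE 0.19, adjusted p = 5.4e-04), and Krt19 at 1789.7, 1499.8 and 1481 CPM against 776, 609 and 680.1 CPM (log2 change 1.21, SE 0.26, adjusted p = 0.00457). Capn13, a calpain protease, was among the 10 smallest p-values of higher genes at 99.2, 76.6 and 91.8 CPM against 16.8, 23.9 and 21.8 CPM (log2 change 2.10, SE 0.19, adjusted p = 4.2e-06). Not all of these held under every alternative: the calls of Tnfsf4 (without saline mouse 3, adjusted p 0.0569), Hsd17b6 (3 alternatives, adjusted p up to 0.0677) and S100a6 (5 alternatives, adjusted p up to 0.113) were lost.

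The same contrast was also measured in mice on the vitamin A-enriched diet, whose 3 treated and 3 saline libraries are separate from those above. There 3727 genes changed, 19.3% of those tested, 1979 higher and 1748 lower. Of the 2271 genes changed on the normal diet, 1587 changed in the same direction on the vitamin A diet, which is 69.9% of the normal diet genes and 42.6% of the vitamin A diet genes. By sign alone 2220 of the 2271 went the same way on both diets and 51 did not. The test of the difference between the diets called 0 of 19323 genes with edgeR, that is 0% of those tested, with 1505 at an unadjusted p under 0.05, 120 called by DESeq2 and 178 by voom. Values on the 2 diets side by side were close for Ercc1 (log2 change 2.01 on the normal and 2.48 on the vitamin A diet), Ripk3 (2.45 and 2.31), Col14a1 (-4.15 and -4.22) and Tacr1 (3.27 and 2.99). They were further apart for Reg3g (6.52 and 3.46), Ccl8 (3.43 and 0.82) and Aldh3a1 (1.75 and 0.00), none of which passed edgeR's test of the difference. For Reg3g the difference in that test was -3.07 (SE 0.69, unadjusted p = 3.0e-04, adjusted p = 0.147). The results of these genes with DESeq2 and voom are not given here. The scatter of changes on the 2 diets shows all genes changed on the normal diet.

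**Figure D4:**
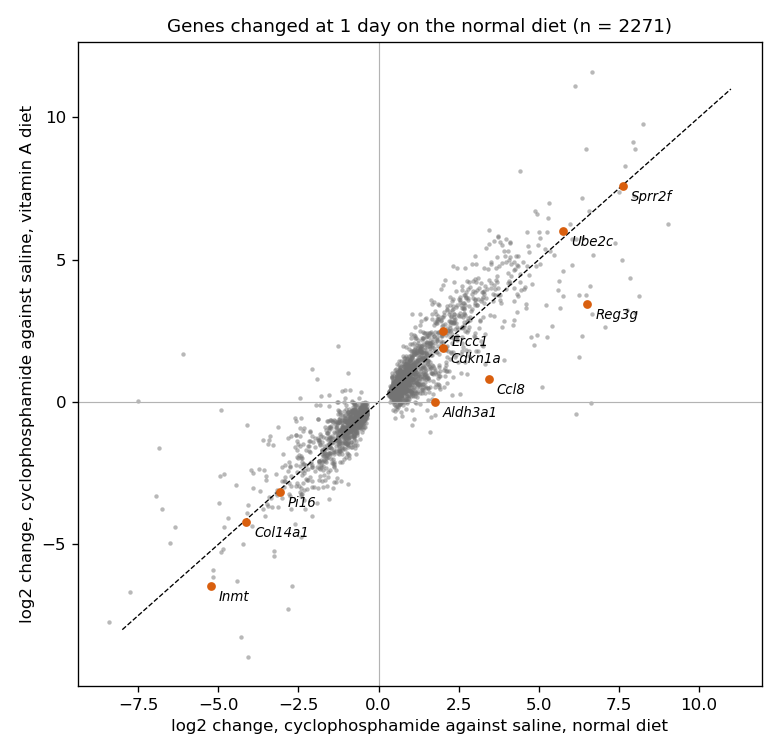
Log2 change after cyclophosphamide against saline at 1 day on the normal diet (horizontal axis) and on the vitamin A diet (vertical axis) for the 2271 genes past the threshold on the normal diet; each point is 1 gene, the dashed line marks equal change, and labels name 10 genes. Of these genes 2220 lie in the quadrants where the signs are the same.

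Mice collected 3 days after cyclophosphamide on the normal diet give the later level of the same genes. They were compared with the 3 treated mice at 1 day described above, so both comparisons share these libraries. For genes named for their change at 1 day, a difference towards the saline level is favoured in advance. The tests of 3 days against 1 day are therefore no separate support for such a return. Between 1 and 3 days 278 genes differed, 1.44% of those tested, 236 higher and 42 lower at 3 days. Of the 25 fibroblast markers 9 were higher at 3 days than at 1 day and 0 lower. Col1a1 averaged 1281 ± 56.5 CPM in saline mice (SD, n = 3 in each group), 421 ± 104 CPM at 1 day and 2763 ± 867 CPM at 3 days, and the difference of 3 days from 1 day was 2.66 on the log2 scale (SE 0.36, adjusted p = 6.3e-04). Lox averaged 17.9 ± 2.98, 8.34 ± 1.01 and 57.3 ± 8.78 CPM (difference 2.72, SE 0.23, adjusted p = 8.9e-06). Fbln5, in contrast, averaged 88.5 ± 2.77, 17.8 ± 1.83 and 56.6 ± 8.23 CPM, so that its mean at 3 days lay between the other means (difference 1.61, SE 0.25, adjusted p = 0.00166). Ercc1 averaged 17.0 ± 1.90, 68.5 ± 11.6 and 31.3 ± 2.21 CPM and was lower at 3 days than at 1 day (-1.19, SE 0.17, adjusted p = 9.0e-04). Ripk3 at 21.0 ± 5.75 CPM and Cdkn1a at 269 ± 36.5 CPM did not differ from their 1 day level past the threshold (adjusted p = 0.946 and 0.268). Saline mice were collected at 1 day only, so the day of collection and the treatment cannot be told apart in any comparison of 3 days with saline.

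**Figure D5:**
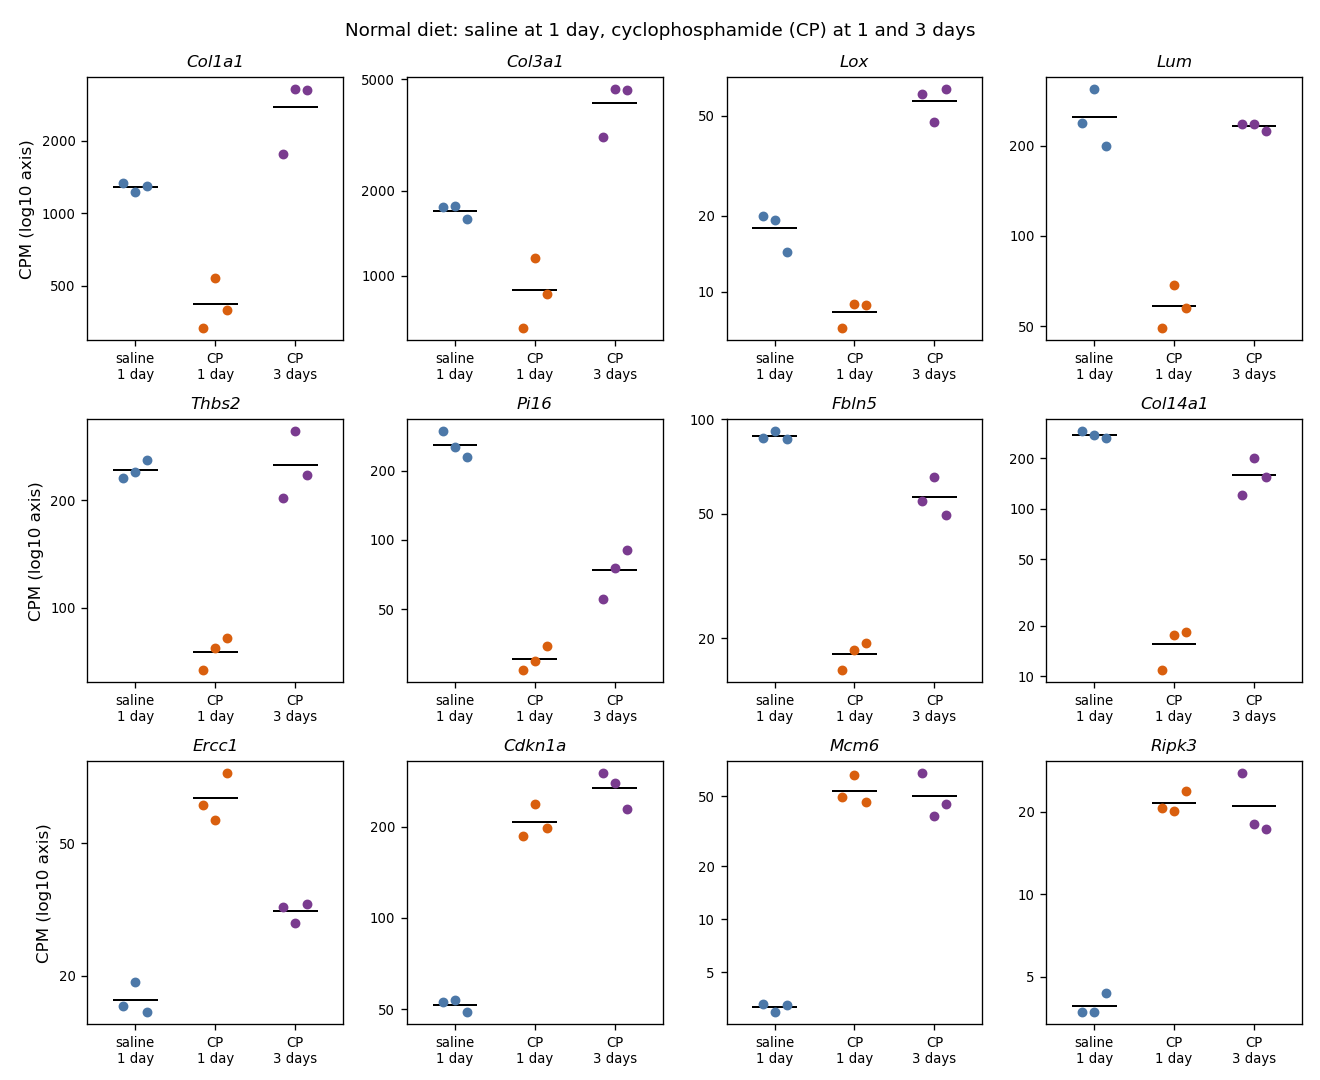
CPM of 8 stromal genes and 4 genes of DNA damage, replication or cell death on a log10 axis (vertical) in saline mice at 1 day and cyclophosphamide mice at 1 day and 3 days, all on the normal diet; points are mice and bars are group means. Col1a1 and Lox stand at or above the saline level at 3 days, while the group means of Pi16, Fbln5 and Col14a1 stand below it.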

How the data were processed

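Bulk RNA of whole mouse bladders was read as gene counts, which the authors deposited as 1 table for 18 libraries; the submitters' processing notes name DESeq2 1.20.0, featureCounts 1.5.0-p3, HISAT2 2.0.5 and the build GRCm39 without their roles. How strand and reads with several alignments were counted is not given in the sources read here. Groups and replicate numbers come from the labels, which call the 3 mice of a group biological replicates. Features without a name, 0.482% to 0.566% of the counts of the 6 libraries compared, were left out of library sizes and tests. Named genes were filtered with filterByExpr, scaled by TMM and fitted over all 18 libraries with 1 mean per group in R 4.3.3 by the quasi-likelihood test of edgeR 4.0.16 (robust, 2-sided), with Benjamini-Hochberg adjustment at 0.05; limma 3.58.1 and DESeq2 1.42.0 served as alternatives. The procedure was tested on simulated data. CPM are not scaled by TMM.

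A gene with 0 counts in a group was compared with a floor of 3 counts over the group, and one with 1 to 3 counts by an exact 95% counting interval; both cover counting error only. Genes named in the text are, among those past the threshold with a mean of at least 1 CPM in the higher group and groups that do not overlap, members of the 15 largest log2 rises and falls, of the 10 smallest p and of the 10 largest CPM differences each way, leaving out predicted models, plus examples by role from 40 gene lists. Members and lists were chosen with earlier results of these data known. Some genes that the rule picks are not reported here. Gene positions are those of the deposited table. Promoters are RefSeq sequence of GRCm38.p6, matched by gene ID. Alternatives covered scaling, filter, test, the libraries fitted, a replicate block, unnamed features and each mouse left out.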

Additional observations from a re-analysis of the deposited data

Results flagged for a closer look

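The features without a gene name, which enter no comparison above, also differed between the groups: 46 of 1946 tested were past the threshold when they were kept in the edgeR fit, 31 higher and 15 lower after cyclophosphamide. That is 2.36% of those tested, a smaller share than the 11.8% of named genes. They are listed because they are signal in data outside the main measurement, and what they are was not tested.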

How the results depend on the processing

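Of 214 tested genes named here, 178 were past the threshold. Of these, 132 stayed past it under all 15 alternatives, 8 had no value under at least 1 alternative and stayed past it under the others, and 38 lost it under at least 1. None of the 178 changed direction where an alternative gave a value. Changed genes on the normal diet numbered 4463 (2303 higher, 2160 lower) in a fit on the compared libraries alone and 5439 (2972 and 2467) with voom and sample weights, while DESeq2 called 1360 lower. The test between diets called 0 with edgeR, 120 with DESeq2, 25 without a filter, 19 on the compared libraries alone and 178 with voom. Genes that differed between 3 days and 1 day numbered 664, 708 and 2205 with DESeq2, the compared libraries alone and voom. The cause of these differences was not tested. Leaving out 1 mouse gave 1239 to 1571 changed genes on the normal diet (813 to 1096 higher, 387 to 494 lower), 2474 to 3926 on the vitamin A diet, 0 to 39 between diets and 70 to 257 between days, with the largest changes in these without saline mouse 3 on the normal diet, saline mouse 2 and treated mouse 1 on the vitamin A diet, and treated mouse 1 at 1 day. The tests of 1 group with a mouse left out take the spread from the other groups too. Among genes not past the threshold, leaving out 1 mouse turned the sign of the log2 change of Atm (-0.218 to 0.054), Atr (-0.173 to 0.042), Bbc3 (-0.184 to 0.161), Ercc4 (-0.163 to 0.013), Il1b (-0.044 to 1.902), Kif23 (-0.171 to 0.391), Pmaip1 (-0.043 to 0.138) and Shh (-0.177 to 0.087). Named genes past the threshold that lost it are given with their group.

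With the replicate number as a replicate block, 2084 genes changed on the normal diet. Deviations of same-numbered treated and saline mice correlated at 0.10, -0.03 and 0.04 across genes, and those of differently numbered mice at -0.09 to 0.06. So few mice cannot settle whether the numbers pair them. Depth limits genes near 0 counts in 1 group, whose folds are bounds or carry wide counting intervals.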

Other observations

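Gene groups outside the comparisons above add to the picture of the treated bladder. Ribosome biogenesis, the making of ribosomes in the nucleolus, had 10 of 24 tested members higher and none lower, with a median log2 change of 0.44. The count was 5 to 8 with 1 mouse left out and 8 to 20 under other settings. Nop2, a methyltransferase of ribosomal RNA, was at 61.4, 65.0 and 60.8 CPM against 35.1, 34.7 and 33.1 CPM (log2 change 0.86, SE 0.15, adjusted p = 7.7e-04), and Fbl, fibrillarin, rose by 0.66 on the log2 scale. Treated and saline mice did not overlap for Nop2. In glycolysis and the hypoxia response 7 of 26 rose and 1 fell, with 3 to 6 higher when 1 mouse was left out and 5 to 11 under other settings. Ldha, lactate dehydrogenase A, was at 449.7, 531 and 583 CPM against 242, 290.5 and 252 CPM (log2 change 0.99, SE 0.19, adjusted p = 0.00199), while Ndrg1, which is induced by hypoxia in many cells, fell (log2 change -1.28, SE 0.20, adjusted p = 4.1e-04). Heat shock and unfolded protein response genes were higher in 9 and lower in 2 of 26, among them Hspa5, a chaperone of the endoplasmic reticulum (log2 change 0.65), Psat1, an enzyme of serine synthesis (1.80), and Trib3, a pseudokinase (-1.45). With 1 mouse left out 5 to 7 of these were higher and 0 to 2 lower, and 8 to 15 were higher under other settings. Lost under an alternative were the calls of Fbl (3 alternatives, adjusted p up to 0.0625), Hspa5 (3 alternatives, adjusted p up to 0.0905) and Trib3 (without treated mouse 3, adjusted p 0.0680).

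Genes of senescence and growth arrest went both ways, 6 higher and 3 lower of 19 (1 to 3 lower with 1 mouse left out). Beside the rise of Cdkn1a, the related inhibitors Cdkn1c (log2 change -1.22, SE 0.36, adjusted p = 0.0336) and Cdkn1b (log2 change -0.46, SE 0.12, adjusted p = 0.0169) fell. Lmnb1, lamin B1, whose loss is a known mark of senescent cells, was at 52.5, 58.1 and 38.2 CPM against 21.5, 19.8 and 20.9 CPM, higher in every treated mouse (log2 change 1.25, SE 0.24, adjusted p = 0.00204). Cdkn2a had a log2 change of -0.63 (SE 0.72, adjusted p = 0.633). Of 13 histone genes 3 rose (1 to 3 with 1 mouse left out), and reads of histone copies and of histone messages without a poly(A) tail are uncertain. Of 12 MHC class II genes Ifi30 rose (1.00) and H2-Aa fell (-0.95). The group's median log2 change was -0.75, with 4 of 12 above 0 and 7 at an unadjusted p under 0.05 in edgeR's test. With 1 mouse left out 0 to 1 were lower, and under other settings 1 to 5. Single genes also changed in the marker lists of dendritic cells (Siglech, -3.32, of 11 tested), adipocytes (Cidea, -2.58, of 14), skeletal muscle (Myh2, -2.69, of 8), mesothelium (Krt19, 1.21, of 10) and the female genital tract and other epithelia (Foxj1, 2.37, of 9). In the same order, the median log2 changes of these lists were -0.18, 0.60, -0.81, -0.35 and 0.02. Above 0 were 5 of 11, 10 of 14, 2 of 8, 4 of 10 and 5 of 9 members. Most adipocyte and mesothelium markers thus went the other way from Cidea and Krt19, and Krt19 is also a urothelial marker. In cholesterol and fatty acid synthesis edgeR called 0 of 24, with 4 at an unadjusted p under 0.05 and up to 3 higher and 5 lower under another setting. Alternatives ended the calls of Cdkn1c (5 alternatives, adjusted p up to 0.156), Cdkn1b (2 alternatives, adjusted p up to 0.114), H2-Aa (2 alternatives, adjusted p up to 0.0930), Cidea (6 alternatives, adjusted p up to 0.167), Myh2 (8 alternatives, adjusted p up to 0.267) and Foxj1 (2 alternatives, adjusted p up to 0.0602).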
